A study of Schizosaccharomyces pombe with 8 samples.

Results

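The 6 regulators ste11, mei2, pat1, mei3, mei4 and mmi1, which decide whether a fission yeast cell goes on dividing or enters meiosis, were followed through 4 strains of Schizosaccharomyces pombe. They were chosen by systematic name, and all 6, of the 4940 genes measured, were found: ste11 (SPBC32C12.02), mei2 (SPAC27D7.03c), pat1, also called ran1 (SPBC19C2.05), mei3 (SPBC119.04), mei4 (SPBC32H8.11) and mmi1 (SPCC736.12c). In the gene table used for names, mei2 lies on chromosome I, mmi1 on chromosome III and the other members on chromosome II. Each was read by 14 probes, and each overlaps from 1 to 3 non-coding genes of that table. Double-stranded cDNA was labelled, so transcripts of either strand cannot be told apart.

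Cells were grown in YES medium at 30 °C in 50 mL cultures and taken after 8 hours, in logarithmic growth. The wild type was PR110, which is h+ and carries leu1-32 and ura4-D18, and these alleles are shared by all the strains. YMP37 is labelled pka1::ura4, YMP41 cgs1::ura4 and OG1 ppt1::kanMX6, each a disruption in that background. Each strain gave 2 arrays, from separate cultures, and the titles place the first array of every strain on slide 1 and the second on slide 2. For the 3 disruptants of slide 2 the position on the slide reads differently in the title and in the table's own name, and the strain was taken from the labels.

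In growing cells, the kinase Pat1 phosphorylates Mei2, an RNA-binding protein, and keeps it from starting meiosis. Starvation raises Ste11, an HMG-box transcription factor that drives mei2 and the mating genes, and cAMP-dependent protein kinase (PKA) holds ste11 down in rich medium, largely through the zinc-finger factor Rst2. In diploid cells with both mating types, Mei3 binds and inhibits Pat1, which frees Mei2. Mei2 then sequesters Mmi1, which in growing cells marks meiotic transcripts for decay, and the forkhead factor Mei4 drives the genes of the meiotic divisions. PKA has a catalytic subunit, from pka1, and an inhibitory regulatory subunit, from cgs1, while this ppt1 acts in coenzyme Q synthesis.

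Values are the deposited gene-level intensities, on a linear scale. Array medians lay between 21210 and 22148 on slide 1 and between 24677 and 25548 on slide 2. The highest signal of a gene that read as deleted, 2497, is used as a background limit, and the highest value on any array was 65239, near which differences are compressed. Signals of cgs1, ppt1 and ura4 followed the labels, but pka1 did not read as disrupted, with 38387 and 46832 on the arrays labelled Δpka1 against 28743 and 34715 in wild type. Those arrays are therefore called by their label, and each direction drawn from them rests on it. The marker ura4 is present in them and in Δcgs1 but not in wild type or Δppt1. It cannot be told apart from the disruption where Δcgs1 or the arrays labelled Δpka1 are compared with wild type or Δppt1.

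Differences are log2 values with their standard error (SE) from limma, fitted to all 8 arrays, and a gene was called where its p, adjusted over all genes, lay below 0.05. Setting the label Δpka1 against wild type asks, if the label holds, which transcripts change with the pka1 disruption and its ura4 marker. In it, 3 of the 6 members rose, mei2, ste11 and pat1, and 0 fell. Of all genes, 8.46% were called there, 4.33% higher and 4.13% lower. The arrays of both strains did not overlap for ste11, mei2, pat1 and mei3, as for 41.1% of all genes. Array medians matched before the fit raised the calls from 418 (214 higher) to 1439 (596 higher). Of the members, mei2 moved farthest, at rank 21 among the 4940 genes ordered from the highest difference down, with ste11 at rank 83 and pat1 at rank 271.

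**Figure D1:**
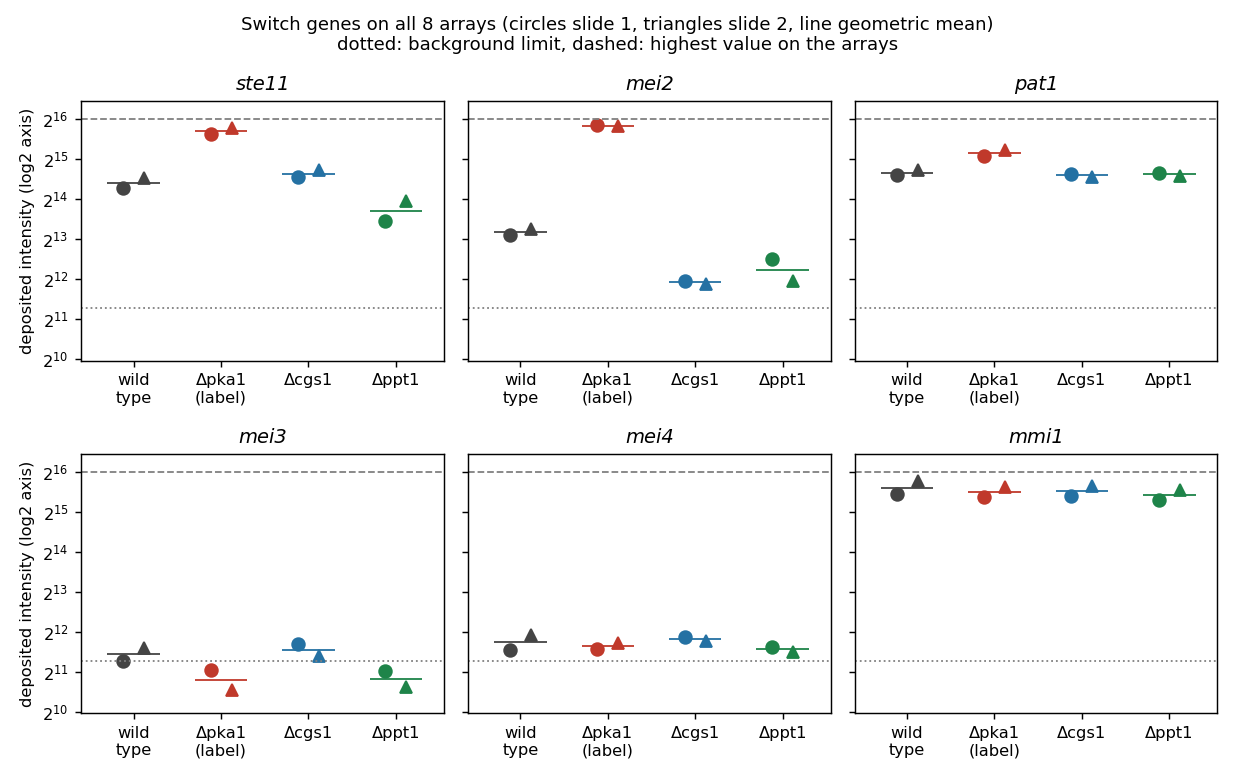
Deposited intensity of each of the 6 genes (log2 axis) on every array by strain, with circles for slide 1, triangles for slide 2, a line at the geometric mean, a dotted line at the background limit of 2497 and a dashed line at the highest value of 65239. Both arrays labelled Δpka1 lie above all others for ste11, mei2 and pat1, while mei3 sits around the background limit in every strain.

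The transcription factor gene ste11 stands at the head of the switch. It read 50680 and 55805 on the arrays labelled Δpka1 and 23878 and 26922 in Δcgs1. Wild type gave 19746 and 23706, and Δppt1 gave 11223 and 15919. Each pair of arrays lay apart from the pairs of the other strains, though wild type and Δcgs1 nearly met, at 23706 and 23878. Of all genes, 41.1% lay apart between the arrays labelled Δpka1 and wild type. For ste11, the arrays labelled Δpka1 were highest and Δppt1 lowest. It was 2.46-fold higher on the arrays labelled Δpka1 than in wild type (log2 1.30, SE 0.18, adjusted p = 0.00771), and the rise was 1.36 on slide 1 and 1.24 on slide 2. It was not called without replicate 2 of that label (1.23, adjusted p = 0.057).

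Between the neighbours in this order, only the step from Δcgs1 to the arrays labelled Δpka1 was called (1.07, SE 0.18, adjusted p = 0.0157). That call was lost when either array of either strain was left out (adjusted p from 0.0615 to 0.0944). The difference between Δcgs1 and wild type was 0.23 (95% interval -0.21 to 0.67, adjusted p = 1). Signal in Δppt1 was lower than in wild type by a log2 difference of -0.70 (95% interval -1.14 to -0.25, adjusted p = 0.218), and this was called with slide as a block, that is within slides (adjusted p = 0.0144).

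The meiosis starter mei2 spanned the widest range of the members, 3.91 on the log2 scale between its highest and lowest strain means. It read 59554 and 57790 on the arrays labelled Δpka1, 8875 and 9788 in wild type, 5852 and 3980 in Δppt1, and 3998 and 3792 in Δcgs1. Every array labelled Δpka1 was far above the rest, wild type stood between, and Δppt1 and Δcgs1 overlapped at the bottom. The rise over wild type was 6.29-fold (2.65, SE 0.18, adjusted p = 0.000263), and it was called with each array left out in turn. The reading of 59554 comes within 10% of that highest value, where a fold is compressed.

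Against Δcgs1, where both strains carry ura4, mei2 was 15.1-fold higher on the arrays labelled Δpka1 (3.91, SE 0.18, adjusted p = 4.85e-05). Against Δppt1 it was 12.2-fold higher (3.60, SE 0.18, adjusted p = 5.55e-05). The lower signals, from 3792 to 5852, were not far above the background limit of 2497. With the random-sequence control of each array subtracted, the differences were 4.38 against Δcgs1 and 3.90 against Δppt1. The difference between the lowest strains, Δcgs1 minus Δppt1, was -0.31 (95% interval -0.73 to 0.11).

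Pat1 is the kinase that holds Mei2 inactive during growth. Its gene, pat1, read 34889 and 38598 on the arrays labelled Δpka1, against 24783 and 27195 in wild type, 25519 and 24039 in Δcgs1, and 25905 and 24412 in Δppt1. The arrays labelled Δpka1 stood above all others, and the remaining strains overlapped. The rise over wild type was 1.41-fold (0.50, SE 0.10, adjusted p = 0.0304), and was 0.49 on slide 1 and 0.51 on slide 2. It was called with slide as a block (adjusted p = 0.00684), but not in any of the 8 fits that left out 1 array (adjusted p from 0.0616 to 0.164), nor in a fit of these strains alone (adjusted p = 0.132). The rise was also called against Δcgs1 (0.57, SE 0.10, adjusted p = 0.0173) and Δppt1 (0.54, SE 0.10, adjusted p = 0.0184), and these calls were lost when any array of the strains compared was left out.

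The inhibitor of Pat1, mei3, is normally transcribed when both mating types meet in a zygote. It read 2479 and 3129 in wild type, 3356 and 2688 in Δcgs1, 2124 and 1507 on the arrays labelled Δpka1, and 2067 and 1576 in Δppt1. These signals lay near the background limit, and 5 of the 8 were at or below it. The log2 difference from wild type was -0.64 (SE 0.23, adjusted p = 0.156) for the label Δpka1 and -0.63 (SE 0.23, adjusted p = 0.443) in Δppt1. The random-sequence control moved the same way on slide 2, by -0.41 on the array labelled Δpka1 and -0.39 on that of Δppt1 against wild type. With that control subtracted from each array, the mei3 differences were -0.97 (adjusted p = 0.121) and -0.95 (adjusted p = 0.372). Both were called lower under cyclic loess normalization (adjusted p = 0.0254 and 0.0477), and the first also with a robust, trended spread (adjusted p = 0.0213). Over all genes, cyclic loess called 1733 and 642 in these comparisons, against 418 and 50 in the main fit. The robust, trended spread called 688 in the first. Against Δcgs1, mei3 was lower on the arrays labelled Δpka1 (-0.75, SE 0.23, adjusted p = 0.0968), by at least 1.20-fold from the limit, and this was called with slide as a block (adjusted p = 0.0364), where 28.8% of all genes were called lower.

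The forkhead factor gene mei4, whose transcript Mmi1 removes in growing cells, read 3003 and 3898 in wild type, 3041 and 3368 on the arrays labelled Δpka1, 3728 and 3489 in Δcgs1, and 3181 and 2905 in Δppt1. All of these were low and just above the limit, with wild type overlapping every other strain. Its differences from wild type were -0.10 (95% interval -0.44 to 0.24) for the label Δpka1, 0.08 (-0.26 to 0.42) in Δcgs1 and -0.17 (-0.51 to 0.17) in Δppt1.

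The remover of meiotic transcripts, mmi1, read 44758 and 55592 in wild type, 42567 and 50773 on the arrays labelled Δpka1, 43544 and 51496 in Δcgs1, and 40269 and 47815 in Δppt1. All strains overlapped, and slide 2 was above slide 1 in each. Its differences from wild type were -0.10 (95% interval -0.50 to 0.29), -0.07 (-0.47 to 0.32) and -0.18 (-0.58 to 0.21) in the same order of strains. With slide as a block the last was called (adjusted p = 0.0424).

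**Figure D2:**
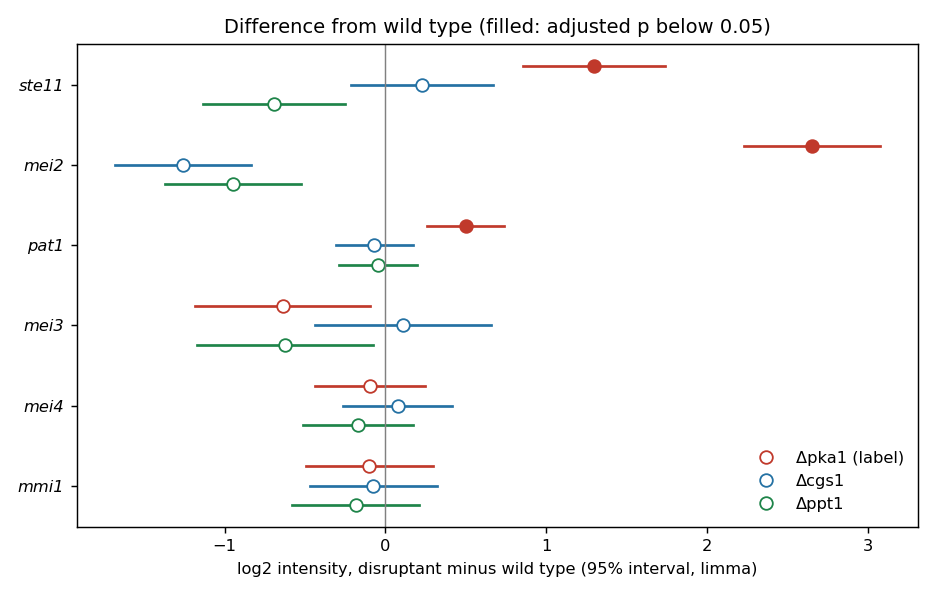
Log2 difference of each gene from wild type in the arrays labelled Δpka1 (red), Δcgs1 (blue) and Δppt1 (green), with 95% intervals from limma and filled points where the adjusted p was below 0.05. The filled points are ste11, mei2 and pat1 in red, and mei2 lies at -1.26 in Δcgs1 and -0.95 in Δppt1.

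Δcgs1, in which PKA lacks its inhibitor, was compared with wild type to ask the opposite question. None of the 6 members was called in the limma fit, where 0.142% of all genes were, and 1 of the 6, mei2, had an unadjusted p below 0.05, against 2.33% of all genes. Signal for mei2 was 2.39-fold lower than in wild type (-1.26, SE 0.18, adjusted p = 0.109), and the difference was -1.15 on slide 1 and -1.37 on slide 2. With the random control subtracted it was -1.56 (adjusted p = 0.0638). Of the 4940 genes, only the disrupted gene cgs1 (-4.11) had a lower difference in this comparison, and mei2 lay at rank 2 from the lowest. It was not called with slide as a block (adjusted p = 0.0566), but was with array medians matched (adjusted p = 0.0455), with quantile normalization (adjusted p = 0.0132), with cyclic loess normalization (adjusted p = 0.0169) and with a robust, trended spread (adjusted p = 2.1e-08). It was also called without either array of Δppt1 (adjusted p = 0.0278), while leaving out 1 array of any other strain gave adjusted p from 0.209 to 0.705.

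In Δcgs1, ste11 and mei2 pointed opposite ways on both slides. The ste11 difference from wild type was 0.27 on slide 1 and 0.18 on slide 2, beside the negative values of mei2 given above. On the arrays labelled Δpka1 both genes were higher, and in Δppt1 both were lower on each slide, with -0.82 and -0.58 for ste11 and -0.60 and -1.30 for mei2. Whether the changes of the genes differ from each other was not tested.

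**Figure D3:**
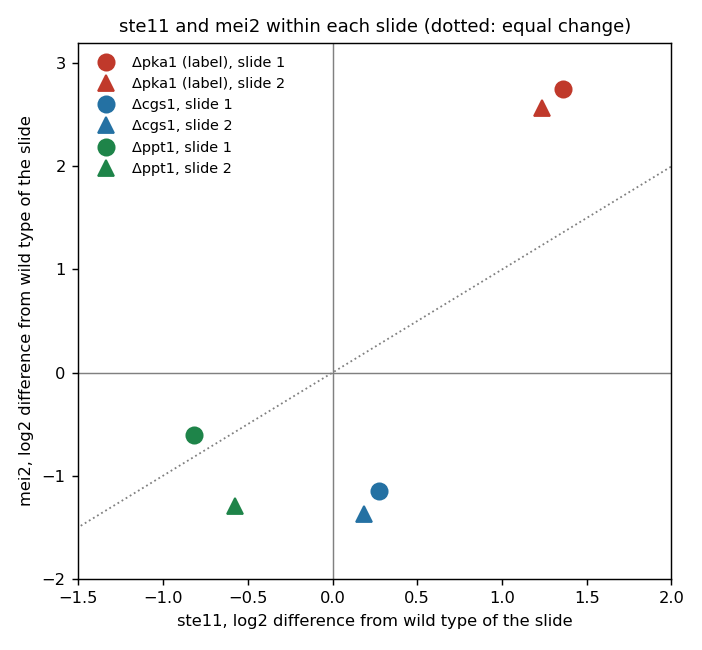
Log2 difference from the wild-type array of the same slide, for ste11 on the x axis and mei2 on the y axis, with circles for slide 1, triangles for slide 2 and a dotted line of equal change. The points labelled Δpka1 (red) lie at upper right, Δppt1 (green) at lower left, and Δcgs1 (blue) at lower right, where ste11 is above 0 and mei2 is below it.

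Δppt1, which cannot make coenzyme Q, was compared with wild type as well. None of the 6 members was called, against 1.01% of all genes, while mei2, ste11 and mei3 had an unadjusted p below 0.05, against 9.13% of all genes. With slide as a block 3 members were called lower, ste11, mei2 and mmi1, where 12.9% of all genes were called and 7.35% were called lower. Signal for mei2 was 1.93-fold lower than in wild type (-0.95, SE 0.18, adjusted p = 0.0793), and the adjusted p was 0.0270 within slides. The value differed between slides. Without replicate 1 of Δppt1 it was -1.23 (adjusted p = 0.0282) and without replicate 2 it was -0.67 (adjusted p = 0.175), and 1 of the 8 fits that left out an array called it.

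In the other comparisons, 3 members were called against Δcgs1 (10.3% of all genes, 4.37% higher) and 3 against Δppt1 (9.6% of all genes, 5.04% higher) on the arrays labelled Δpka1, ste11, mei2 and pat1 each time, all higher. Between Δcgs1 and Δppt1 no member was called, against 1.78% of all genes, and ste11, with 0.92 (SE 0.18, adjusted p = 0.0748), was called with slide as a block (adjusted p = 0.00484), where 20.5% of all genes were called, 14.3% higher. Unadjusted p lay below 0.05 there for ste11 and mei3, against 12.2% of all genes.

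Genes around the switch were read from 7 lists, and each list's counts leave out the 6 members. Of 19 measured genes that Ste11 is known to drive, 11 rose on the arrays labelled Δpka1 and 0 fell, where 4.33% and 4.13% of all genes did. The list's median was 0.62 against -0.04 over all genes. The gene for the P-factor precursor, map2, read 4581 in wild type and 21656 on these arrays as means (2.25, SE 0.18, adjusted p = 0.000598). The P-cell regulator map1 rose by 1.72 (SE 0.16, adjusted p = 0.000991), the G-protein regulator rgs1 by 1.35 (SE 0.20, adjusted p = 0.0102) and ste4, an adaptor of the pheromone MAP kinase cascade, by 1.26 (SE 0.16, adjusted p = 0.00424). The other called genes were gpa1, fus1, map3, spk1, ste6, mam3 and byr2. The 11 include mam3, an adhesin of M cells, while the M-cell genes mam1, mam2, mfm1 and mfm2 were not called (differences from -0.21 to 0.07). Within slides 12 of the 19 were called higher and 1 lower, where 14.7% and 24% of all genes were.

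All strains are labelled h+, the P mating type, and the P-cell markers map1, map2 and map3 summed to between 50779 and 59966 on the arrays labelled Δpka1 against 17816 to 21622 in wild type. The 5 measured M-cell markers, of which ste6 serves both mating types, summed to between 42190 and 46545 against 34350 to 43154. As means, ste6 read 18237 against 11311 and mam1 11134 against 10574, while mam2, mfm1 and mfm2 were lower than in wild type. The markers of cells past commitment to meiosis, 5 genes, summed to between 92494 and 102511 against 64554 to 73477. Only isp3 among them had a higher mean, 33132 against 2987. The means of spo6, rec8, mes1 and meu10 were lower, with meu10 at 1334 against 2008. The readings of spo6 overlapped with wild type, mes1 read 16232 and 16370 against 16504 and 16852, and the meiotic cohesin gene rec8 read 2143 and 1792 against 2069 and 2640. In Δcgs1 and Δppt1 the sums lay between 18578 and 21409 and between 17192 and 18182 for P cells, 38400 and 44713 and 34525 and 38035 for M cells, and 68294 and 74459 and 62664 and 71866 past commitment. The P-cell gene map1 was at or below the background limit in both, and the M-factor gene mfm2 in every strain. In bulk cultures, more cells that express a gene and more RNA per cell cannot be told apart.

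In Δcgs1, 0 of the 19 Ste11 targets were called, with a median of 0.04 and a range from -0.62 to 0.20. The lowest were mat3-Mc (-0.62, adjusted p = 1), which encodes an M-cell regulator and shares its sequence with another cassette, and mfm2 (-0.34, adjusted p = 1), an M-factor gene, both at background. In Δppt1 the targets had a median of -0.16, 5 of 19 lay above 0 and 0 were called. With slide as a block 2 of them were called lower there, where 7.35% of all genes were.

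**Figure D4:**
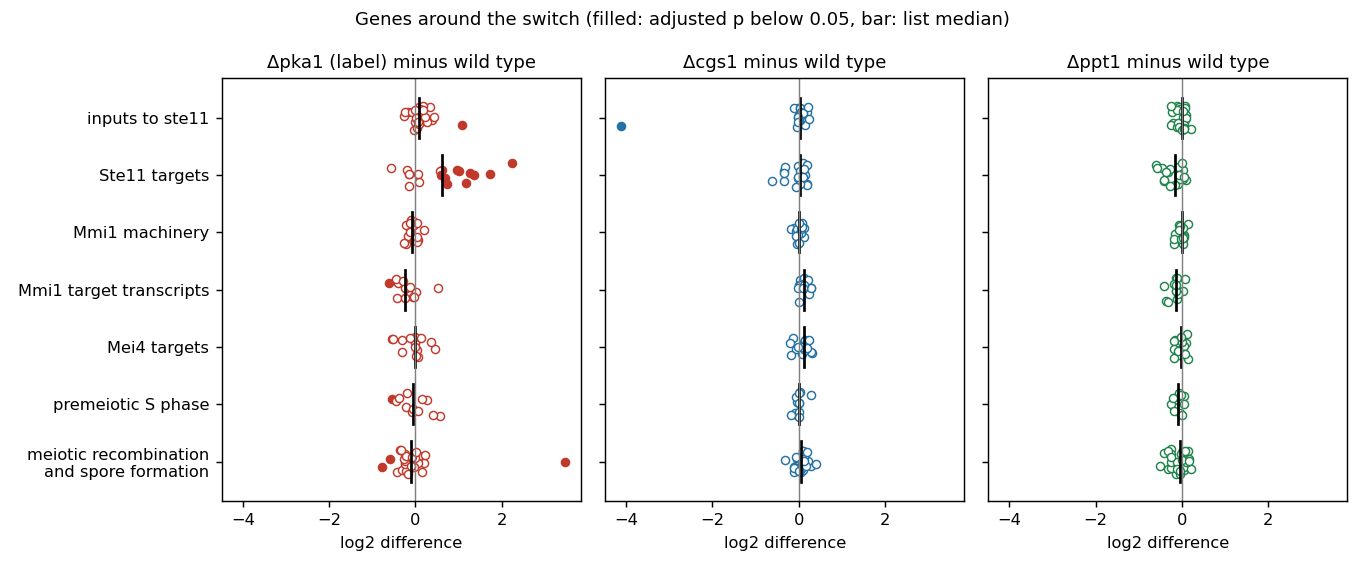
Log2 difference from wild type for every measured gene of the 7 lists, in the arrays labelled Δpka1, Δcgs1 and Δppt1, with filled points where the adjusted p was below 0.05 and a bar at each list's median. Most filled points are Ste11 targets (11 of 19) in the left panel, and the filled point at -4.11 in the middle panel is the disrupted gene cgs1.

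Of 25 genes that carry signals to ste11, 1 rose on the arrays labelled Δpka1, where 4.33% of all genes did, and 0 fell, with a median of 0.07. It was cgs1 itself, at 46361 and 54252 against 20232 and 28238 in wild type (1.07, SE 0.20, adjusted p = 0.0209). The gene of the ste11 activator Rst2, named after its values were seen, read 35875 against 27569 as means (0.38, SE 0.13, adjusted p = 0.136), and it was called within slides (adjusted p = 0.00263). With the block 7 genes of this list were called higher and 2 lower, where 14.7% and 24% of all genes were. In Δcgs1, cgs1 was the disrupted gene, and the remaining genes lay between -0.11 (cyr1) and 0.24 (snf5), with none called.

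The machinery that works with Mmi1 did not pass the test in any list member on the arrays labelled Δpka1, 0 of 16, with a median of -0.07. The exosome nuclease gene dis3 gave the largest value (-0.27, SE 0.14, adjusted p = 0.348), followed by rmn1 (-0.22, SE 0.14, adjusted p = 0.428). Within slides 3 of the 16 were called lower, dis3 among them (adjusted p = 0.0220), where 24% of all genes were. In Δcgs1 the list was also at 0 of 16 (median 0.00), with iss10 at -0.17 and the helicase gene mtl1 at 0.13.

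Of 13 meiotic transcripts that Mmi1 is known to remove, 1 fell on the arrays labelled Δpka1, 0 rose and 2 lay above 0. It was mcp7, whose product acts in meiotic recombination, lower by at least 1.40-fold from the background limit (-0.62, SE 0.14, adjusted p = 0.0450). Of all genes, 4.33% were called higher and 4.13% lower in this comparison. Within slides 1 of the 13 was called higher and 3 lower, where 14.7% and 24% of all genes were. For the label Δpka1 the list's median was -0.23, against -0.04 over all genes. It was 0.13 against 0.02 for Δcgs1 and -0.12 against -0.02 for Δppt1. Of the 13 genes, 12 lay above 0 in Δcgs1 and none was called there. Signals of these genes are mostly low, and 2 of them were at or below the limit on all arrays. The random control stood lower in the same strains on slide 2, and its part in these medians was not tested. In Δcgs1 the largest values were those of mug10 (0.29, adjusted p = 1) and rec8 (0.28, adjusted p = 1).

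Of 15 targets of Mei4, 0 rose and 1 fell on the arrays labelled Δpka1, mde1 (-0.56, SE 0.12, adjusted p = 0.0341). Of 12 genes of premeiotic S phase, 1 fell, rep2 (-0.53, SE 0.08, adjusted p = 0.0119), which activates S-phase genes in the mitotic cycle. Of 28 genes of recombination and spore formation, 1 rose and 2 fell. The spore wall gene isp3 read 30560 and 35703 against 2916 and 3057 in wild type, an 11.1-fold rise (3.47, SE 0.22, adjusted p = 0.000212). The falls were spo14 (-0.78, SE 0.11, adjusted p = 0.00818) and the spore wall gene meu10 (-0.59, SE 0.14, adjusted p = 0.0493), the latter at background in both strains. Among all genes, 4.13% were called lower in this comparison. Within slides, 2 Mei4 targets were called higher and 2 lower, 3 premeiotic S-phase genes higher and 3 lower, and 1 gene of recombination and spore formation higher and 5 lower. The shares of all genes were then 14.7% higher and 24% lower. In Δcgs1 none of these 3 lists held a call, and their largest values were those of meu10 (0.41), rec7 (-0.32), mde6 (0.32), spn7 (0.30), res2 (0.30) and cig2 (-0.18).

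Measured genes next to ste11 and mei2 on the chromosome did not pass the test in any comparison with wild type. Beside mei2, grp1 differed by 0.09 and omt2 by -0.34 on the arrays labelled Δpka1, and beside ste11, cyc3 differed by 0.26 and ppk25 by -0.40 (each with an adjusted p of 0.265 or more). With slide as a block both neighbours of ste11 were called there (adjusted p = 0.0169 for cyc3, higher, and 0.0218 for ppk25, lower). That fit called 14.7% of all genes higher and 24% lower. Beside pat1, ubp11, a ubiquitin protease gene, rose from 12541 to 29204 (1.20, SE 0.15, adjusted p = 0.00447), and mug124 on the other side differed by -0.40 (adjusted p = 0.0893), which was called within slides (adjusted p = 0.0274). In Δppt1, cyc3 differed by -0.40 beside ste11 (adjusted p = 0.371) and grp1 by 0.34 beside mei2 (adjusted p = 0.830). Both were called within slides (adjusted p = 0.0140 and 0.0175), where 12.9% of all genes were.

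The genes most like ste11 were sought among the 4147 genes with a symbol. The measure was the root mean square difference, over the 8 arrays, of log2 values with each gene's slide mean removed. Nearest were ste7 (0.17), a gene needed for mating, then gld1 (0.20, a glycerol dehydrogenase) and the zinc-finger factor gene rsv1 (0.21). The pyruvate decarboxylase gene pdc202 (0.23) and the superoxide dismutase gene sod2 (0.23) followed. In ste7 the arrays read 55170 and 58150 with the label Δpka1, and 25121 and 28168 in Δcgs1. Wild type gave 24146 and 26256, and Δppt1 gave 17510 and 19862. The strain means of ste7, gld1, rsv1, pdc202 and sod2 all stood in the same order as those of ste11. These genes were picked for likeness to ste11 on the same arrays, so the shared order follows from the choice.

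No gene with a symbol came as near to mei2, whose strain means span 3.91 on the log2 scale against 1.99 for ste11. The measure is not scaled to that span. The nearest were gcd1 (0.42), isp3 (0.46), ssd2 (0.47), ddr48 (0.49) and the alpha-galactosidase gene mel1 (0.52). In gcd1 the arrays read 56840 and 60270 with the label Δpka1, 7452 and 8374 in wild type, 7109 and 7002 in Δcgs1, and 6786 and 5914 in Δppt1. All 5, picked for likeness to mei2 on the same arrays, were higher on those labelled Δpka1, as mei2 was. In wild type mel1 was below the background limit and isp3 just above it, so a lower signal in Δcgs1 could not be read from them.

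**Figure D5:**
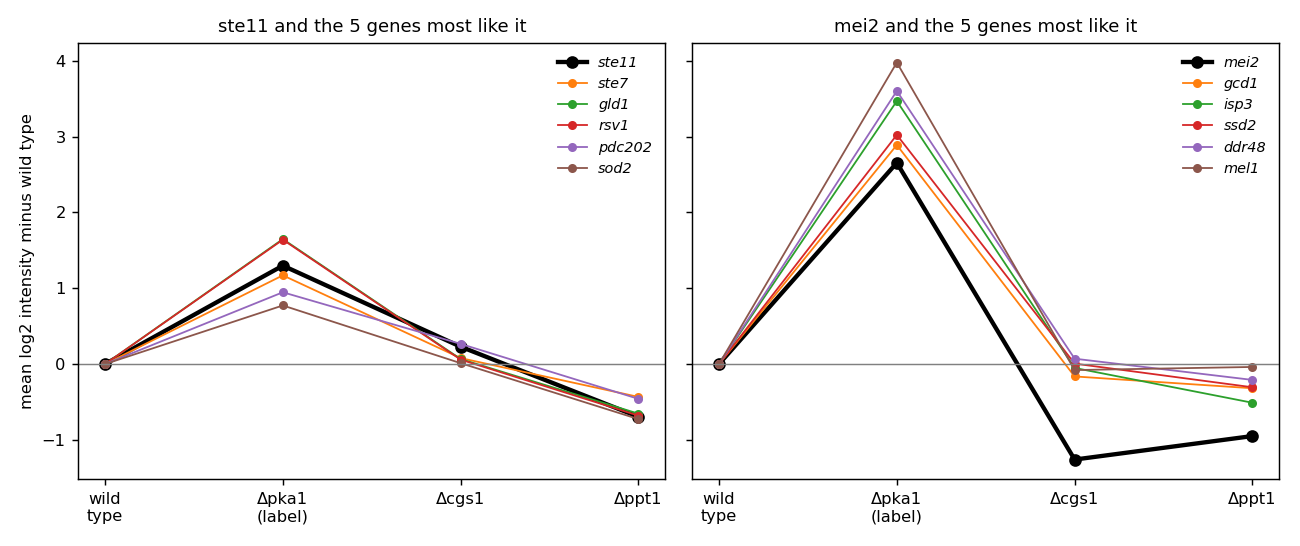
Mean log2 intensity by strain, less the wild-type mean, for ste11 (left, black) and mei2 (right, black). Colours show the 5 genes most like each, among genes with a symbol. The coloured lines at right stay near 0 in Δcgs1, where mei2 is at -1.26 (mel1 and isp3 are at or near the background limit there), and those at left lie below 0 in Δppt1, where ste11 is at -0.70.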

How the data were processed

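Total RNA from 8 cultures was labelled with Cy3 for 1-colour NimbleGen arrays, per the labels' protocols. Each deposited value is 1 linear intensity per gene and array, summarised over the gene's probes, per the file headers. How the authors summarised and normalized them, and the genome build, are not given in the sources used here, so no positions are printed. The series value table differed from these values by at most 0. Names came from a RefSeq table (assembly ASM294v3), which held 4913 of 4940 genes.

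Values were taken to log2. limma 3.58.1 in R 4.3.3 fitted 1 mean per strain to all 8 arrays (4 residual degrees of freedom) for 6 comparisons, with two-sided moderated tests and Benjamini-Hochberg adjustment over 4940 genes in each. A second fit took the replicate number as a block: titles give same-numbered arrays 1 slide, and their deviations correlated in all 6 strain pairs (r from 0.351 to 0.690). With 2 arrays per strain, their number limits the precision. The script was tested on simulated data. A fold "at least" starts from the background limit, which was set with the data known.

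The rule named the 6 members, the targeted genes, up to 4 called genes per list (or the 2 largest values) in the comparisons of pka1 and cgs1 disruptants with wild type, and the 5 nearest patterns of members ranging over at least 1 log2. Nearest patterns were sought only among genes with a symbol. Lists held 125 distinct measured genes, and 7 names were not matched. Members and lists were chosen with earlier results of these data known.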

Additional observations from a re-analysis of the deposited data

How the results depend on the processing

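The calls of mei2 on the arrays labelled Δpka1 held in all 16 alternatives against each other strain. Those of ste11 held in 15 of 16 against wild type, 12 of 16 against Δcgs1 and 16 of 16 against Δppt1. The call of pat1 against wild type held in 6 of 16. With 1 array left out, the members called on the arrays labelled Δpka1 ranged from 1 to 2 against wild type and from 1 to 3 against Δcgs1. For Δcgs1 against wild type, and for Δppt1 against wild type, they ranged from 0 to 1. With slide as a replicate block, 3 members were called in Δppt1 against wild type and 1 in Δcgs1 against Δppt1, and the block changed the count of called members by over 1.5 times in no other comparison. For Δcgs1 against wild type, matched medians, quantile and cyclic loess normalization and the robust trended spread each called 1 member, mei2. Over all genes they called 39, 69, 63 and 30, in that order, against 7 in the main fit. For Δppt1 against wild type, matched medians, quantile normalization and the robust trended spread called 2 members and cyclic loess called 3. Over all genes they called 338, 698, 168 and 642, in that order, against 50 in the main fit. For Δcgs1 against Δppt1, matched medians and quantile normalization called 1, and cyclic loess and the robust trended spread called 2. Over all genes they called 545, 968, 881 and 227, in that order, against 88 in the main fit. No called difference changed sign. The causes were not tested. Among all genes, the block raised the calls against wild type from 418 to 1908 for the label Δpka1, from 7 to 41 in Δcgs1 and from 50 to 636 in Δppt1, so a member not called may still differ within slides. Below 3000 in mean signal mei3 left the fit.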
